A study of Mus musculus with 6 samples.

Results

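Epithelial cells of every organ share a core set of genes for sticking together, for an inner keratin scaffold and for a guarded outer surface. The genes described here in fetal mouse lung are Epcam, Cdh1, Krt7, Krt8, Krt18, Krt19, Muc1, Spint1, Spint2 and Esrp1. The set is defined by the genes' known roles and not by a cut on a measured value, and every probe set annotated to 1 gene only, and that gene a member, was taken. That gave 14 probe sets for the 10 genes, out of 45037 probe sets and 18193 named genes in all. Every one of the 14 lay above the median probe set of the array (5.30 log2, averaged over the 6 arrays).

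The study compared whole lungs of mouse embryos at E18.5, late in gestation, on 6 arrays (3 titled wild-type, 3 titled GATA6 KO), to learn which genes the zinc finger factor GATA6 regulates in this organ. The labels call the second group null tissue, and name neither the allele, nor a Cre driver, nor the strain, nor whether an array holds 1 embryo or a pool. P-values therefore measure the spread between these arrays, which may be technical. Levels are given as log2 of the deposited intensity plus 16, and differences as the mean of the arrays labelled KO minus that of the arrays labelled wild-type. Probe sets bind different stretches of RNA with different strength, so levels of different probe sets are not compared with each other.

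A lung epithelium is a continuous sheet in which E-cadherin (Cdh1) joins neighbouring cells through catenins and EpCAM (Epcam) modulates the contacts. Simple epithelia hold keratin filaments built from 1 basic type II chain (Krt7, Krt8) and 1 acidic type I chain (Krt18, Krt19), which are obligate partners. The mucin Muc1 coats the free surface, the Kunitz inhibitors Spint1 and Spint2 restrain the membrane serine proteases matriptase and prostasin, and the RNA-binding protein Esrp1 sets the epithelial splice forms of many transcripts.

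Of the 3 probe sets of Gata6 the brightest read 11.12, 10.26 and 10.42 log2 in wild-type 1 to 3 and 11.58, 11.39 and 11.19 in KO 1 to 3. Every array labelled KO thus lay above every wild-type array, a difference of 0.79 (SE 0.25, adjusted p = 0.963 in limma). The other probe sets also read higher, by 0.82 (SE 0.31) with no overlap and by 0.36 (SE 0.45) with overlap. The targeted transcript was not lower in the arrays labelled KO. Whether these probe sets cover the deleted part is not known here, so they leave the labels unchecked. Surfactant and club cell markers were bright on all 6 arrays (Sftpc between 12.71 and 15.79, Scgb3a2 between 14.62 and 15.07). Krt5 and Krt14, keratins of basal and squamous cells, read at most 4.76 and 4.35, near the floor. Of the 6 basal or squamous markers read, 2 were bright, Krt15 at 8.06 to 9.31 and Krt4 at 5.44 to 5.83. Wild-type 1 and 2 were run on fluidics station 1, per the experiment files, and wild-type 3 with all arrays labelled KO on station 2. The arrays also differed in what is called RNA composition here, the median of bright probe sets with no gene name minus that of bright named ones. What sets this gap was not tested. It was -0.87, -1.98 and -1.88 log2 in wild-type 1 to 3 and -1.97, -1.19 and -0.66 in KO 1 to 3, so that it grouped wild-type 1 with KO 2 and KO 3.

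Promoter sequence was looked at for what the members share besides their role. RefSeq promoter windows (build GRCm38.p6) were at hand for 7 of the 10 genes, and the 250 bases before the annotated start were searched on both strands for 2 motifs. The first was the GATA motif, spelled AGATAA or equally well AGATAG, and starting with the other base TGATAA or equally well TGATAG. The second was the E-box CACCTG, which reads CAGGTG on the other strand and is known as a site for the Snail and Zeb repressors of epithelial genes. The windows of Muc1, which differed most between the groups, of Krt8, the 1 member whose window held a GATA motif, and of Epcam, the namesake surface protein, are shown with both motifs in capitals. Muc1 lies at chr3:89228806-89229055 on the plus strand, Krt8 at chr15:102004343-102004592 on the minus strand and Epcam at chr17:87635729-87635978 on the plus strand.
Muc1: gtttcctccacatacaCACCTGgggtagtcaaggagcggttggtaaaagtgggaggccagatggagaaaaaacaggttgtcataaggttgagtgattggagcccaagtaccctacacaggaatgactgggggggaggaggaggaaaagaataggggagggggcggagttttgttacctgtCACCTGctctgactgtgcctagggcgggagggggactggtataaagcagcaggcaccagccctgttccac
Krt8: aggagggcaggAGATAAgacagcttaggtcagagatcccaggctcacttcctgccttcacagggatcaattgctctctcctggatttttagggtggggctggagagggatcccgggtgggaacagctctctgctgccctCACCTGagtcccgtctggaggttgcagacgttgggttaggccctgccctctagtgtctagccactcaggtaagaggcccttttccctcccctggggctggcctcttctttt
Epcam: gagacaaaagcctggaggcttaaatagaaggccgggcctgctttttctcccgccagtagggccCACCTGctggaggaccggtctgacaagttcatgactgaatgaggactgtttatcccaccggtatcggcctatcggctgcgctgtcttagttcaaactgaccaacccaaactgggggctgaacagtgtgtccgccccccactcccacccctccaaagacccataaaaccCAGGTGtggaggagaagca

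The E-box stood in 6 of the 7 windows (Muc1 2, Epcam 2, Spint2 3, and Krt7, Krt8 and Krt18 1 each) and not in that of Spint1. Among all 32851 promoter windows of this length 17.2% held it, and 20% of the 11996 windows whose GC content lay in the members' range of 54.8% to 72.8%. In Muc1 the matches began 234 and 70 bases before the start, and in Epcam 187 and 19. The GATA motif stood in 1 of the 7 windows, that of Krt8, 239 bases before the start, against 26.5% of all windows and 12.9% of those of like GC. These letters describe the windows only, and no binding was measured.

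No member passed the test between the groups. By limma, with Benjamini-Hochberg adjustment over all probe sets, 0 of the 14 member probe sets had an adjusted p under 0.05, and 0 of the 45037 tested (0%). Muc1 was the 1 member probe set with an unadjusted p under 0.05, where 3.1% of all probe sets had one. Fitted with 1 probe set per gene, 0 of the 10 members passed, against 1 of 18193 genes (0.0055%), and 1 member had an unadjusted p under 0.05 against 4.58% of genes. These shares include dim probe sets. With limma fitted on bright probe sets alone, 1154 of 22518 probe sets and 771 of 11245 genes had an unadjusted p under 0.05. Read by brightest probe set, 5 members were higher and 5 lower in the arrays labelled KO, with a median difference of 0.06 log2, where the median over all genes was 0.0025.

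In 2 of the 14 probe sets each KO array lay under each wild-type array, and in 0 each lay over. Over the 22518 bright probe sets these shares were 5.12% and 4.45%. The 2 were that of Muc1 and 1 of the 3 of Krt8, and the other 12 overlapped. The plot of every probe set on every array shows how far the groups mix.

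**Figure D1:**
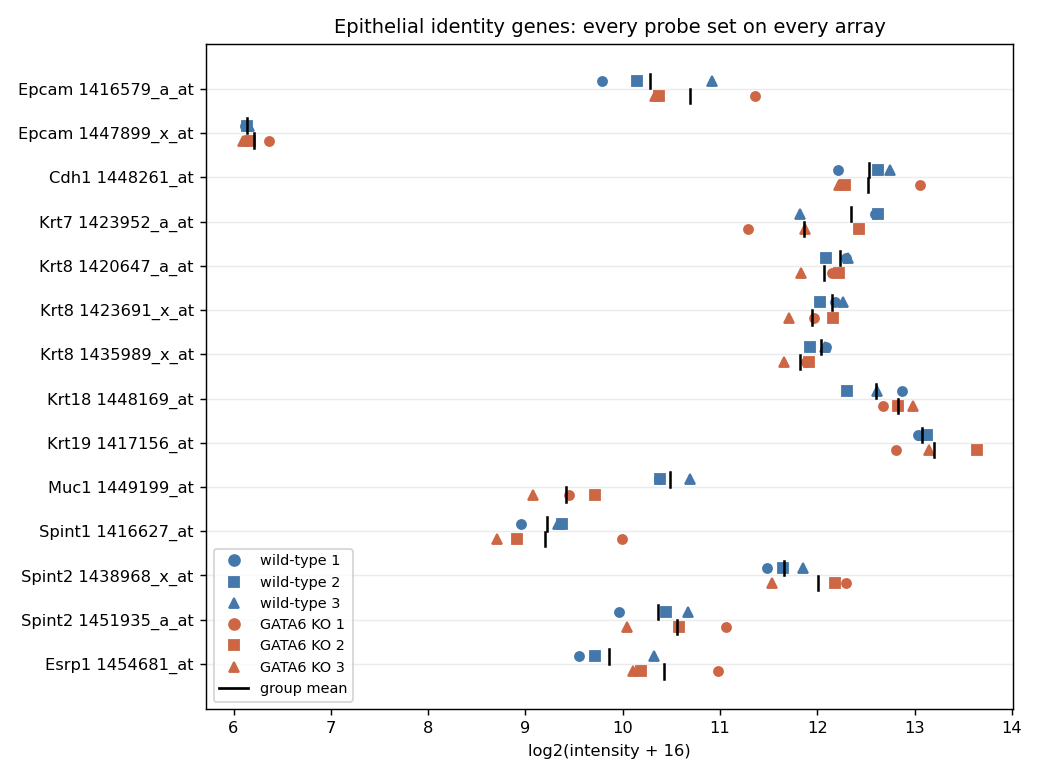
Level of each of the 14 member probe sets (rows) as log2(intensity + 16) on the horizontal axis, with wild-type arrays in blue, GATA6 KO arrays in orange, symbols for the array number and black bars for group means. The 3 KO points of Muc1 (9.08 to 9.72) lie left of its wild-type points (10.37 to 10.69), while the KO points of Epcam, Spint1 and Esrp1 spread around theirs with KO 1 farthest right.

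Muc1, the transmembrane mucin of the apical surface, was the member that differed most. Its intensity was 1307, 1322 and 1638 in wild-type 1 to 3 and 684.1, 825.3 and 524.7 in KO 1 to 3. On the log2 scale that is 10.37, 10.39 and 10.69 against 9.45, 9.72 and 9.08. Every array labelled KO lay below every array labelled wild-type, and KO 3 was the lowest. Group means came to 10.48 ± 0.18 for wild-type and 9.42 ± 0.32 for KO (SD, n = 3). The difference was -1.07 (SE 0.19), or 2.09-fold lower on the log2(intensity + 16) scale. Its 95% interval, not adjusted for the number of probe sets, ran from -1.54 to -0.60, and the adjusted p in limma was 0.963. A difference of that size in either direction was read by 1.25% of bright probe sets, and 164 of the 22518 read as low or lower.

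Muc1 read lower in all 18 alternatives run on probe sets, from -1.28 to -0.89, with an adjusted p in limma from 0.424 to 1. Within fluidics station 2, where wild-type 3 is the only wild-type array, the difference was -1.28. Mean levels of alveolar cell markers were also lower on average in the arrays labelled KO. The mean level of 6 alveolar type I markers was 11.72 to 12.73 log2 in the arrays labelled wild-type and 10.44 to 12.48 in those labelled KO, and all 6 read lower on average. For 6 measured type II markers it was 12.90 to 13.40 and 11.87 to 13.09, with 5 of the 6 lower. The lowest of these, in KO 3, leans on Abca3, which read 6.12 there and 10.64 to 12.29 on the other arrays. KO 2, at 12.48 for type I and 13.09 for type II, lay within the wild-type range of both. Wild-type 3, the highest array for Muc1, was the lowest wild-type array for type I, at 11.72. Among the arrays labelled KO, Muc1 and the type II mean were both highest in KO 2 and lowest in KO 3. The type I mean was lowest in KO 1. Rtkn2 alone among the type I markers came near the floor, at 4.69 in KO 1. All 6 endothelial markers also read lower on average, with mean levels of 9.507 to 10.346 and 8.997 to 9.712. The part of these cells in the Muc1 difference was not tested. In whole lung, fewer cells of a type and less RNA per cell cannot be told apart.

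Esrp1, the splicing regulator, differed most in the other direction. Its single probe set read 9.55, 9.71 and 10.32 log2 in wild-type 1 to 3 and 10.98, 10.19 and 10.11 in KO 1 to 3. KO 1 lay above all other arrays, and KO 2 and KO 3 lay below wild-type 3. The difference was 0.57 (SE 0.31, 95% interval -0.20 to 1.33, adjusted p = 0.963), and without KO 1 it was 0.29. With fluidics station as a block the difference of Esrp1 was 0.11. Its paralogue Esrp2, which overlaps with it in function, read 10.97, 10.53 and 10.25 in wild-type 1 to 3 and 10.34, 10.08 and 9.84 in KO 1 to 3. The difference of Esrp2 was -0.50 (SE 0.22), with wild-type 3 and KO 1 overlapping. The other probe set of Esrp2, which was not bright, differed by -0.03 (SE 0.15), also with overlap.

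Epcam, the homophilic surface glycoprotein, has a bright and a dimmer probe set. The bright one read 9.79, 10.14 and 10.92 in wild-type 1 to 3 and 11.36, 10.37 and 10.33 in KO 1 to 3. KO 1 was again the highest of the 6 and wild-type 1 the lowest, and wild-type 3 lay above KO 2 and KO 3. The difference was 0.41 (SE 0.40, 95% interval -0.58 to 1.39, adjusted p = 0.963). It was 0.07 without KO 1 and turned to -0.23 with fluidics station as a block. The dimmer one read between 6.11 and 6.16 in the arrays labelled wild-type and between 6.10 and 6.37 in those labelled KO, a difference of 0.08 (SE 0.20).

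Cdh1, the E-cadherin gene, showed next to no difference between the group means. It read 12.21, 12.62 and 12.74 in wild-type 1 to 3 and 13.06, 12.28 and 12.23 in KO 1 to 3. Wild-type averaged 12.53 ± 0.28 and KO 12.52 ± 0.47 (SD, n = 3). The 95% interval of the difference ran from -0.67 to 0.66 (adjusted p = 0.998 in limma), so shifts of that size in either direction remain possible. The 3 low arrays were wild-type 1, KO 2 and KO 3, the same 3 that stood apart in RNA composition. With that composition as a covariate the difference was 0.16, and its sign also turned in other fits.

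Spint1 and Spint2, the inhibitors of matriptase and prostasin, gave no common direction. Spint1 read 8.96, 9.38 and 9.33 in wild-type 1 to 3 and 9.99, 8.91 and 8.71 in KO 1 to 3, a difference of -0.02 (SE 0.36, 95% interval -0.90 to 0.87). It sorted the arrays as Cdh1 did, with wild-type 1, KO 2 and KO 3 below the other 3, and with the composition covariate its difference was 0.20. The part of RNA composition in the levels of Cdh1 and Spint1 was not tested beyond that fit. The brighter probe set of Spint2 read 11.48, 11.64 and 11.85 in wild-type 1 to 3 and 12.29, 12.18 and 11.54 in KO 1 to 3, a difference of 0.35 (SE 0.22, 95% interval -0.21 to 0.90). With station as a block the difference of that probe set was 0.15. The other probe set of Spint2 differed by 0.20 (SE 0.31), and turned to -0.11 with station as a block.

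Krt8 and Krt18 pair with each other in simple epithelia. The brightest of the 3 probe sets of Krt8 read 12.30, 12.09 and 12.32 in wild-type 1 to 3 and 12.15, 12.23 and 11.83 in KO 1 to 3. The 3 probe sets differed by -0.17 (SE 0.13), -0.21 (SE 0.14) and -0.21 (SE 0.10), and in the last of these the groups did not overlap, with wild-type at 11.93 to 12.09 and KO at 11.66 to 11.91. They target 1 gene and are not independent. Without KO 3 the difference of the brightest was -0.05. Krt18 read 12.87, 12.31 and 12.61 in wild-type 1 to 3 and 12.68, 12.82 and 12.98 in KO 1 to 3, a difference of 0.23 (SE 0.17, 95% interval -0.18 to 0.64), and without wild-type 2 it was 0.08. No array labelled KO was the lowest for Krt18, yet KO 1 and KO 2 lay below wild-type 1.

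Krt7, which is abundant in alveolar type I cells and in mesothelium, varied with single arrays. It read 12.59, 12.62 and 11.82 in wild-type 1 to 3 and 11.29, 12.43 and 11.87 in KO 1 to 3, a difference of -0.48 (SE 0.36, 95% interval -1.36 to 0.40, adjusted p = 0.963). KO 1 was the lowest array, and KO 2 lay within 0.2 log2 of wild-type 1 and 2. Without KO 1 the difference was -0.20. With fluidics station as a block it was 0.05, and wild-type 3, the wild-type array of station 2, read 11.82. Krt19 read 13.04, 13.12 and 13.08 in wild-type 1 to 3 and 12.81, 13.64 and 13.14 in KO 1 to 3. The wild-type arrays lay within 0.08 log2 of each other, while KO 1 was the lowest and KO 2 the highest of all 6. The difference was 0.12 (SE 0.21), and without KO 2 it was -0.10.

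**Figure D2:**
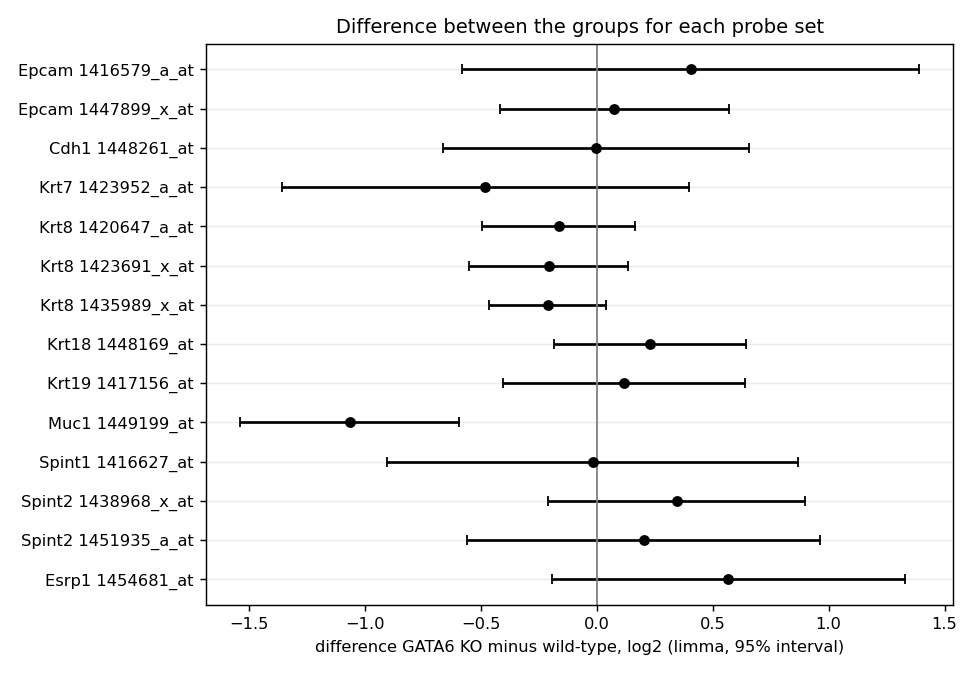
Difference of each member probe set (rows), GATA6 KO minus wild-type in log2 on the horizontal axis, as points with 95% intervals from limma that are not adjusted for the number of probe sets. The interval of Muc1 (-1.54 to -0.60) lies left of 0, and those of the other 13 probe sets cross it.

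The array labelled KO 1 was the highest array for 7 of the 14 probe sets (both of Epcam and of Spint2, and those of Cdh1, Spint1 and Esrp1) and the lowest for 2, Krt7 and Krt19. Among the 22518 bright probe sets 24.98% were highest and 14.69% lowest in KO 1. KO 3 was the lowest array for 6 of the 14 and wild-type 1 for 5, where 28.58% and 18.7% of bright probe sets were lowest. Epcam, Cdh1, Spint1, Spint2 and Esrp1 thus read high in the same array in which Krt7 and Krt19 read low, and Muc1, at 9.45, lay below all 3 wild-type arrays there.

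In KO 1 the markers of alveolar type I cells and mesothelium also read low. All 6 alveolar type I markers (Ager, Hopx, Aqp5, Pdpn, Cav1 and Rtkn2) were lowest there, as were 4 of 5 mesothelial markers. Aqp5, the water channel of type I cells, read 8.10 log2 in KO 1 against 9.34 to 11.13 on the other arrays, and Pdpn 8.49 against 10.30 to 11.91. Of the 6 type II markers 2 were lowest in KO 1, Sftpc and Slc34a2, and the type II mean was lowest in KO 3 (11.87, against 12.17 in KO 1). That mean in KO 3 leans on 1 gene, Abca3, which read 6.12 there and 10.64 to 12.29 on the other arrays. The mesothelial gene Upk3b read 10.29 in KO 1 against 11.16 to 12.13. The mean level of the 5 mesothelial markers was 9.18 to 10.06 in the arrays labelled wild-type and 8.90 to 10.17 in those labelled KO. Foxa1, a transcription factor of the whole lung epithelium, went with the other side, at 11.96 in KO 1 and 10.06 to 11.57 elsewhere. Of the other markers in its list Foxa2 was also highest in KO 1, but Nkx2-1 was highest in wild-type 3 (6.73, against 6.12 in KO 1). The mean level of that list was 9.58 in KO 1 and 9.53 in wild-type 3. What part these cells had in the levels of Krt7, Krt19, Epcam or Cdh1 was not tested.

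**Figure D3:**
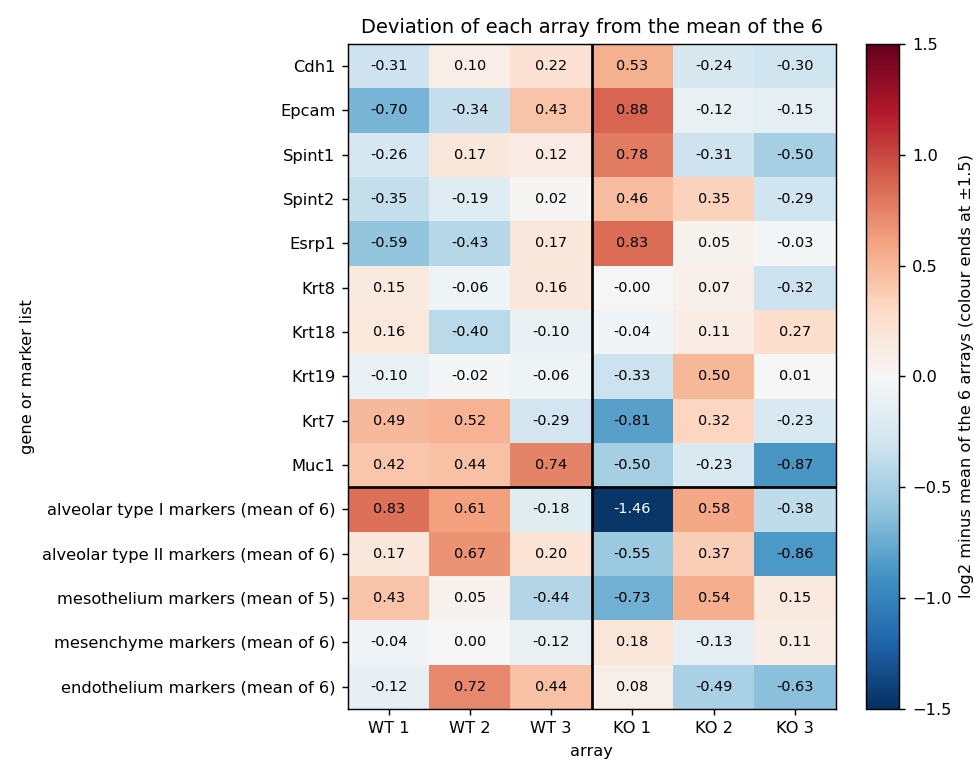
Deviation of each array (columns, WT for wild-type) from the mean of the 6, in log2, for the brightest probe set of each member (upper rows) and the mean of 5 cell type marker lists (lower rows), with the value printed in each cell and the colour ending at ±1.5. KO 1 is above the mean for Cdh1, Epcam, Spint1, Spint2 and Esrp1, and below it for Krt7 and Krt19 and for the markers of alveolar type I cells and mesothelium.

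The wider epithelial programme was read in 9 lists with 86 measured genes between them, 66 of them bright. None of the 86 passed limma over all genes, 7 had an unadjusted p under 0.05 where 4.58% of all genes did, and their median difference was 0.0048. With limma fitted on bright genes alone, 771 of 11245 had such a p. Values below are for the brightest probe set of each gene. The lists differ little in their medians, which ran from -0.25 to 0.12.

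Of the adherens junction partners of E-cadherin 3 of 11 measured genes read higher and 8 lower, with a median of -0.15 and 0 called. Of the 11, 8 were bright, and among the bright only Ctnnb1 read higher. The catenins Ctnna1 and Ctnnb1, which tie E-cadherin to actin, differed by -0.15 (SE 0.22) and 0.10 (SE 0.15). In the tight junction and polarity list 5 of 12 read higher and 7 lower (median -0.04, 0 called), with the scaffold gene Tjp1 at -0.18 (SE 0.14) and Tjp3 at 0.21 (SE 0.17).

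Desmosomes are the junctions that anchor keratin filaments. Of 10 measured desmosome genes 7 read higher and 3 lower, with a median of 0.12 and 0 called. Of the 10, 8 were bright, and the others, both among the higher, lay near the floor. Dsp, which links the junction to keratin, differed by -0.06 (SE 0.43). The desmosomal cadherin Dsg2 read 8.79, 9.14 and 9.74 log2 in wild-type 1 to 3 and 11.31, 10.34 and 10.33 in KO 1 to 3. That is a difference of 1.44 (SE 0.36, adjusted p = 0.897 in limma over genes), and all 6 of its probe sets read higher in the arrays labelled KO with no overlap between the groups. Its partner Dsc2 read 4.91, 4.81 and 4.96 in wild-type 1 to 3 and 6.17, 6.06 and 6.44 in KO 1 to 3, a difference of 1.33 (SE 0.12, adjusted p = 0.161). The wild-type arrays lay near the floor, so the size for Dsc2 depends on the added 16. It counts as bright only through the arrays labelled KO. The other probe set of Dsc2, which was not bright, differed by 0.07 (SE 0.03) with overlapping groups.

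Of the 10 measured epithelial transcription factors 8 read higher and 2 lower (median 0.05, 0 called). Bright were 8 of the 10, and the others, both among the higher, lay near the floor. Grhl1 and Grhl2, which switch on Cdh1, Epcam and claudin genes in many epithelia, differed by 0.40 (SE 0.34) and 0.20 (SE 0.28). The brightest probe set of Elf5, a factor of distal lung epithelium, differed by 0.59 (SE 0.14, adjusted p = 0.892) with no overlap, but its other probe set read lower by -1.15 (SE 0.75). Ehf differed by 1.34 (SE 0.48), with overlapping groups. Its other probe sets differed by 0.33 (SE 0.36), 0.76 (SE 0.45) and 0.0026 (SE 0.0042), also with overlap.

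In the list of pericellular proteases and the HGF system 7 of 9 measured genes read higher and 2 lower (median 0.03, 0 called), and 6 of the 9 were bright. St14, which encodes matriptase, differed by 0.03 (SE 0.31) and Prss8, which encodes prostasin, by 0.10 (SE 0.10). Met, the receptor for HGF, read 10.52 to 10.63 in the arrays labelled wild-type and 10.81 to 11.44 in those labelled KO. That is a difference of 0.44 (SE 0.19) with no overlap. Its other probe set differed by 0.83 (SE 0.47) with overlapping groups.

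Of the other keratins 9 of 11 read higher and 2 lower, but only 3 of the 11 were bright, and the median was 0.0078 with 0 called. Krt5 and Krt14 differed by 0.0078 (SE 0.03) and 0.0018 (SE 0.0056), both near the floor. Other surface and trafficking genes split 5 higher and 2 lower (median 0.05, 0 called), with the glycoprotein gene Cd24a at 0.35 (SE 0.24) and the tetraspanin gene Cd9 at 0.26 (SE 0.13).

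The splicing list, which holds Esrp2, had 3 of 10 genes higher and 7 lower (median -0.25, 0 called), and Rbfox2 differed by 0.07 (SE 0.29). Fgfr2, a known target of Esrp1 and Esrp2, differed by -0.31 (SE 0.12). It was the 1 bright gene of all lists with every array labelled KO below every wild-type array. Its 3 probe sets all read lower, but the groups overlapped in all except the brightest. Mbnl1, another splicing regulator, differed by 0.41 (SE 0.17) with no overlap. In its other probe sets, at 0.43 (SE 0.22) and 0.03 (SE 0.03), the groups overlapped. These probe sets measure gene signal and were not used to tell splice forms apart.

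Genes of epithelial-mesenchymal transition, which many epithelia keep low, split 2 higher and 7 lower (median -0.10, 0 called). The 7 lower were all bright, while the 2 higher lay near the floor. Zeb1 and Zeb2, repressors that bind the E-box, differed by -0.22 (SE 0.12) and -0.36 (SE 0.17). Whole lung holds much mesenchyme, in which both are expressed. The mean level of 6 mesenchyme markers was 12.66 to 12.77 in the arrays labelled wild-type and 12.64 to 12.95 in those labelled KO. Of the 6, 4 read lower and 2 higher, and the mean leans on Dcn, which differed by 1.10 (SE 0.20) with no overlap. Over all lists 5 of the 66 bright genes had every array labelled KO above every wild-type array (Dsg2, Dsc2, Elf5, Met and Mbnl1) and 1 had every one below (Fgfr2), where the shares over all bright probe sets were 4.45% and 5.12%. Dsc2 entered that count only through the arrays labelled KO, as its wild-type mean of 4.89 lay below the bright cut of 5.30. The counts are small and over genes while the shares are over probe sets, and the gap between them was not tested. Except for Dsg2, which is among the first of its list, these genes and Ehf were named after their values were seen, as were the single marker genes.

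**Figure D4:**
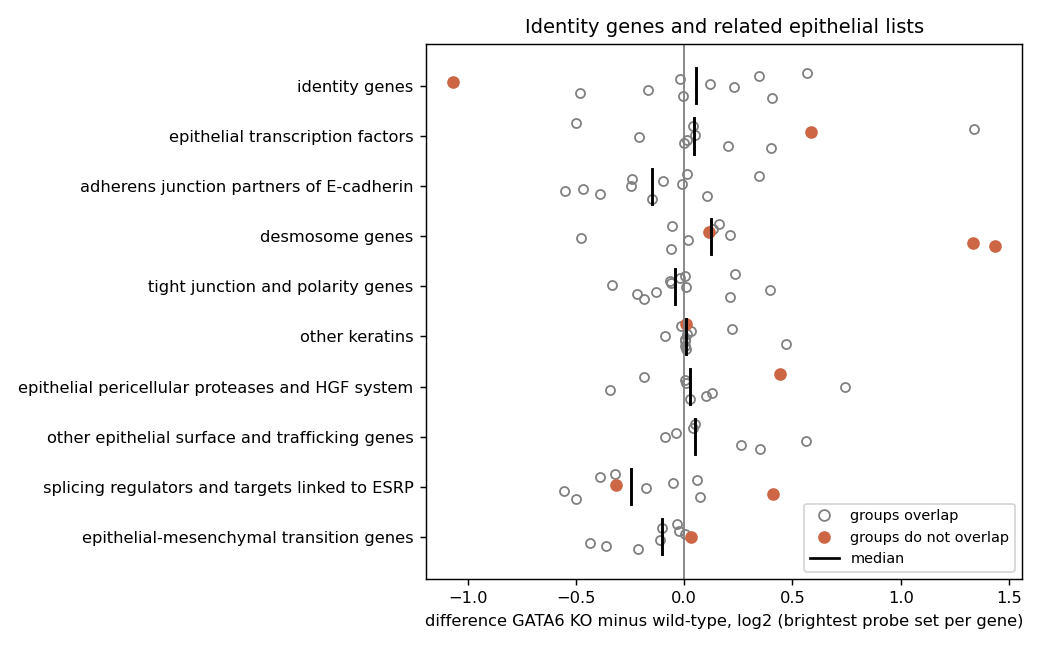
Difference of each gene, GATA6 KO minus wild-type in log2 on the horizontal axis, for the 10 identity genes and 9 related lists (rows), with filled points where the groups do not overlap and black bars for the medians. Muc1 is the filled point at -1.07, Dsg2 and Dsc2 are those at 1.44 and 1.33, and the list medians lie between -0.25 and 0.12.

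The mean profile of the 10 members over the 6 arrays, each centred on its own mean, was shallow: -0.11, -0.02 and 0.14 log2 in wild-type 1 to 3 and 0.18, 0.05 and -0.24 in KO 1 to 3. Among 9086 other genes above the median gene the 5 profiles nearest to it were those of Xab2, Nol12, Babam1, Fip1l1 and Cct3. Their root mean square distance over the 6 arrays was 0.03 to 0.05 log2. These are broadly expressed genes, and no other member of the lists was among them.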

How the data were processed

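Total RNA of 6 embryonic mouse lung samples was measured on Affymetrix Mouse430_2 arrays. The authors deposited 1 intensity per probe set and array, on a linear scale. GCRMA and MAS5 are both listed in the submitters' processing notes, with no version or role, and which of them made the values is not stated. None is negative, and the arrays were taken as already normalised to each other. The median intensity per array lay between 20.5 and 23.9. Precision is limited by having 3 arrays a group. Values were transformed to log2 after adding 16. Of 45101 probe sets 64 controls were left out, 34945 name 1 gene (through current gene IDs where listed), 932 several and 9160 none here.

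Groups were compared with limma 3.58.1 in R 4.3.3 (lmFit, eBayes with an intensity trend, two-sided), adjusted over all 45037 probe sets, threshold 0.05. Members' values come from that fit. Lists and markers come from the same fit on 1 probe set per gene, the brightest, over 18193 genes. Members and lists were chosen with earlier results of these data known. Of each list the first 2 measured genes are named, with others said to be chosen later. The limma fit over probe sets was tested on simulated data drawn with independent noise. Alternatives changed the pseudocount, moderation, array weights, scaling, filter, probe set choice, blocks, a covariate and the arrays used.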

Additional observations from a re-analysis of the deposited data

How the results depend on the processing

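No member and no gene of the 9 lists passed in limma under any of the 18 alternatives on probe sets or 20 on genes. The members' median difference stayed between -0.06 and 0.15 log2, within the arrays' spread of 0.18. With the replicate block it was 0.06, and the block gave 0 calls. Array numbers were not taken as pairs: residuals of same-numbered arrays correlated over probe sets at -0.774, 0.00914 and -0.49, and 0 of 6 arrays lay closest to its own number. Muc1, Esrp1, Krt18, the brighter probe set of Spint2 and 2 probe sets of Krt8 kept their sign in all 18. With station as a block Esrp1 shrank from 0.5675 to 0.1099, and the brighter probe set of Spint2 from 0.3452 to 0.1505. In that fit Krt18 was at 0.212, Muc1 at -1.2762 and the 2 of Krt8 at -0.3128 and -0.2614. Blocking on station, or keeping to station 2 alone, gave 1 result: Epcam turned to -0.229, Krt7 to 0.046 and the dimmer probe set of Spint2 to -0.1132. These fits rest on wild-type 3 alone for the wild-type arm, which is assumed to vary like the other arrays. Array quality weights turned Cdh1 to 0.0375, the brightest probe set of Krt8 to 0.0316 and Spint1 to 0.0559. Quantile normalisation turned Spint1 to 0.0175. The composition covariate turned Cdh1 to 0.1637 and Spint1 to 0.1975. Leaving out 1 array at a time gave -0.2722 to 0.1443 for Cdh1, -0.4135 to 0.2281 for Spint1, -0.0482 to 0.4605 for the dimmer probe set of Spint2, -0.1024 to 0.3104 for Krt19 and -0.0026 to 0.132 for the dimmer one of Epcam. The cause of these turns was not tested.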

Other observations

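Genes beside Muc1 in the genome were read after its values had been seen. Thbs3, a thrombospondin gene and its neighbour on one side, read 7.70, 7.22 and 7.54 log2 in wild-type 1 to 3 and 6.20, 7.09 and 6.28 in KO 1 to 3. The groups did not overlap, as for Muc1, with a difference of -0.96 (SE 0.31) and an adjusted p of 0.964 in limma over genes. The next gene on that side, Mtx1, differed by 0.08 (SE 0.11). On the other side Trim46 read near the floor and differed by -0.0065 (SE 0.015), and Krtcap2 differed by 0.11 (SE 0.13). Thbs3 has 1 probe set and Muc1 1, and the relation of the 2 was not tested.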
